A study of Rattus norvegicus with 18 samples.

Results

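The 6 time zero arrays of the series give the expression profile of cultured neonatal rat cardiomyocytes before any medium was exchanged. They were chosen by their source label, which marks them as controls at time zero, received no treatment, and make up 6 of 18 samples. The cells came from ventricles of day 1 rats (n = 24), were purified on Percoll gradients and were plated at 250000 cells per 100 mm dish. They had spent 24 h in cardiac medium when 6 dishes were extracted, so every value below is that of isolated cells in culture and not of the intact ventricle. The other 12 samples, which received hESC medium with or without factors conditioned by stem cells, are not compared here. No genotype, strain or sex is given, and which dish went onto which array is not stated. The labels do not name separate harvests, so the spread between arrays may be technical. The RNA was labelled with biotin and read in 1 colour on CodeLink oligonucleotide arrays, of which there were 2 designs. Replicates 3 to 6 lie on the larger design, which measured 12197 named genes, and replicates 1 and 2 on the smaller one, which measured 6455, all of them also on the larger.

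A ventricular cardiomyocyte devotes much of its transcription to the sarcomere, the contractile unit in which myosin thick filaments pull on actin thin filaments under the control of troponin and tropomyosin. Calcium released from the sarcoplasmic reticulum starts each contraction, and mitochondria supply most of the ATP. Around birth the rodent heart exchanges fetal for adult isoforms of several of these proteins, moves from glucose towards fatty acids as its fuel, and its myocytes leave the cell cycle. Preparations of neonatal ventricle also carry fibroblasts, smooth muscle, endothelial and blood cells in varying amounts, and in RNA from a whole dish fewer cells of a type and less RNA per cell cannot be told apart.

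Signals are fluorescence intensities without a unit, scaled so that every array of a design has the same median, which was 96.8 for the larger design and 287 for the other. Values under 0.05 of that median were raised to it, which makes 4.84 and 14.4 the lowest signals. Each gene is given by its brightest probe. Probes bind their targets with different efficiency and no correction for transcript length is possible, so an order of signals between genes is an order of probe signals and not of transcript numbers. The 4 values in a row belong to replicates 3, 4, 5 and 6, and a pair for the smaller design is that of replicates 1 and 2. A percentile is the place of a gene's mean log2 signal among all probes of its design. The median named gene, taken by its brightest probe, lies at percentile 68.4 among the probes of the larger design and at 53.8 among those of the smaller.

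Replicates 4 and 5 stood apart from replicates 3 and 6 by the width of their signal range, and replicate 4 also by correlation. The ratio of upper to lower quartile of the signals was 41.7 and 47.8 on replicates 3 and 6, but 22.5 and 22.4 on replicates 4 and 5. Pearson correlations of log2 signals over all 33849 probes ran from 0.88 between replicates 4 and 6 to 0.96 between replicates 3 and 6. Replicate 5 correlated better with replicates 3 (0.94) and 6 (0.93) than with replicate 4 (0.90), and the pair on the smaller design reached 0.97 over 9906 probes. On replicate 4, 1562 probes were more than 4-fold above all 3 other arrays, against 662 on replicate 5, 211 on replicate 6 and 139 on replicate 3.

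These high probes were not spread evenly over the probe IDs. The ID of each probe combines a first part from 1 to 328 with a second part from 1 to 112, and the product of both, 36736, equals the number of rows in the table, as for rows and columns of a grid. Of the 1562 probes high on replicate 4, 1134 (72.6%) had a first part from 41 to 80, where they made up 27.3% of 4154 probes. Of the 662 probes high on replicate 5, 552 (83.4%) had a first part from 201 to 280. On replicates 3 and 6 no band of 40 exceeded 0.970%. Whether the ID gives the position on the slide is not stated by the sources used here. Genes described below with 1 array this far above the others are said to be so. Each list's count of genes in the top 10% of probes was the same without replicates 4 and 5.

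**Figure D1:**
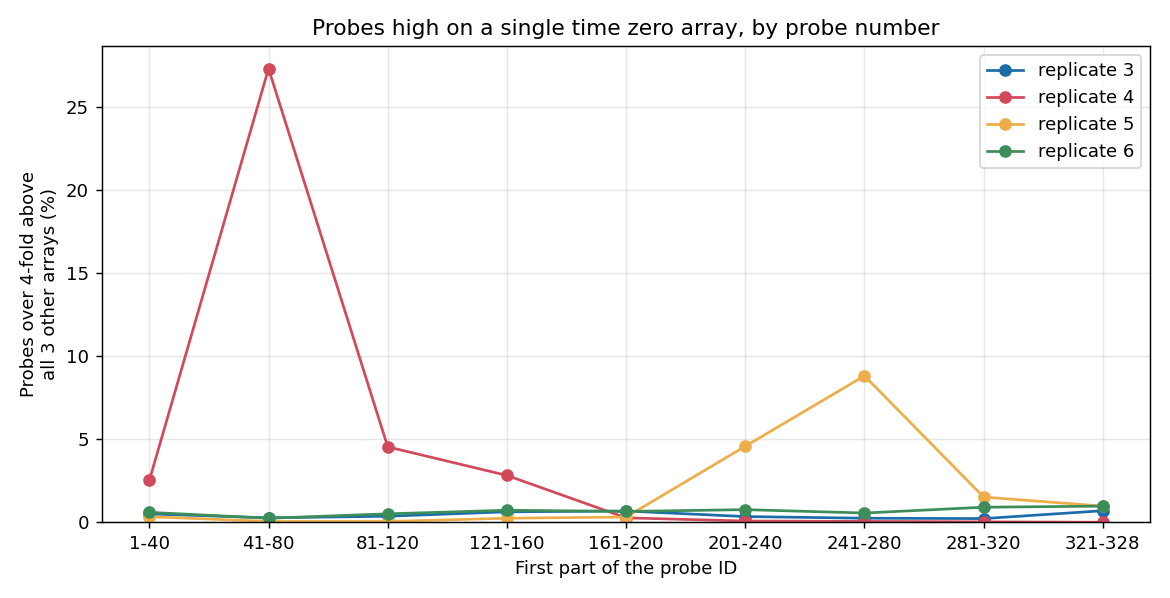
Share of probes (%, vertical axis) whose signal on 1 array was more than 4-fold above all 3 other time zero arrays of the larger design, by the first part of the probe ID in bands of 40 (horizontal axis; the last band is shorter); each line is 1 array. Replicate 4 peaks at 27.3% in the band from 41 to 80 and replicate 5 at 8.81% in the band from 241 to 280.

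The brightest genes at time zero encoded sarcomere proteins, respiratory chain subunits and ribosomal proteins. Of the 30 genes with the highest mean log2 signal, 7 were sarcomere genes (Acta1, Myl2, Myl3, Tnnt2, Tnnc1, Mybpc3 and Tnni3), 7 encoded subunits of the respiratory chain or ATP synthase (Uqcrq, Atp5mc3, Ndufb8, Cox6a2, Ndufb9, Atp5f1b and Uqcrc1) and 5 encoded ribosomal proteins (Rplp1, Rps29, Rpl23, Rps27 and Rpl6). Acta1, the skeletal alpha-actin that neonatal rat heart also uses, was first, with signals of 43321, 23278, 19783 and 32012, a mean of 29599 ± 10495 (SD, n = 4). Myl2, the regulatory light chain of ventricular myosin, followed with 41137, 22824, 18304 and 28977. Uqcrq, a small subunit of complex III, gave 43478, 20995, 18838 and 25956. All 3 were highest on replicate 3 and lowest on replicate 5. Actc1, the cardiac alpha-actin gene, was not measured by a probe of its own. Whether the Acta1 probe also bound Actc1 RNA was not tested.

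Pln encodes phospholamban, which holds back the calcium pump of the sarcoplasmic reticulum, and its signals were 40312, 18114, 18879 and 30285. Nppa, the gene of atrial natriuretic peptide, gave 32410.3, 18071, 17742 and 28301. Mybpc3, the cardiac myosin-binding protein C, gave 37726, 14807, 18591 and 27335, the lowest value on replicate 4. Sparc, which encodes a matricellular protein secreted by many mesenchymal cells, was the one gene of the fibroblast and matrix list among the 30, with 31919.8, 18271, 18545 and 27284. The remaining genes of the 30 were Ppia (cyclophilin A), the lactate dehydrogenase genes Ldha and Ldhb, the LIM-domain gene Crip2, the muscle genes Smpx and Sh3bgr, the small heat shock gene Hspb2 and Fxyd1, the gene of phospholemman, which regulates the sodium pump.

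The 30 genes lay close together, and their order was not the same on every array. Uqcrq was above Acta1 on replicate 3 (43478 against 43321) and below it on the other arrays. The first, Acta1, exceeded the last, Fxyd1, on every array. The mean log2 signals of the 30 ran from 14.40 (Fxyd1) to 14.79 (Acta1), a span of 0.39. The median SD of a gene among them over the 4 arrays was 0.48. It holds the shift of whole arrays, with scaled means of the 30 of 34883, 19082, 17338 and 27284. A shift shared by the genes of an array leaves their order unchanged, so this SD does not measure that order. That SD followed the scaling: it was 0.10 on the values as deposited and 0.11 after quantile normalization, and the deposited values had a median coefficient of variation of 6.99% between arrays. As deposited, their signals lay between 19289.9 and 34065 on every array. The files carry no flag for saturated or background spots, so a ceiling on the signal was not tested. Of the 30, 22 were measured on the smaller design, and all 22 lay in the top 10% of its probes, where 12.6% of its genes lie.

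**Figure D2:**
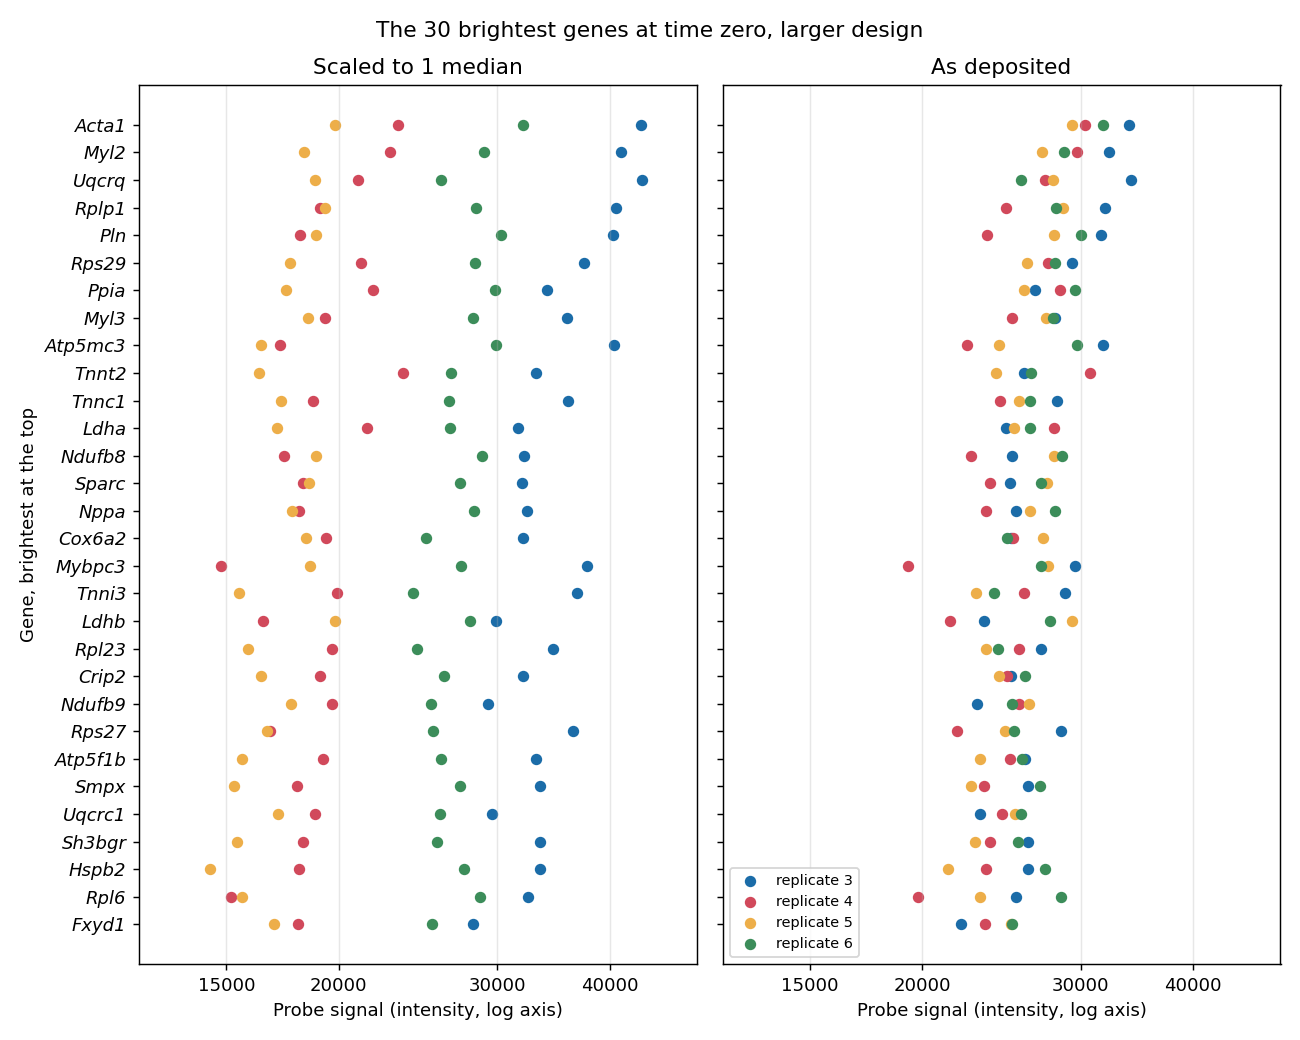
Signals of the 30 brightest genes of the larger design (vertical axis, brightest at the top) on the 4 time zero arrays (points; intensity on a log axis), scaled to 1 median on the left and as deposited on the right. Scaled values separate replicates 3 and 6 from replicates 4 and 5, and deposited values lie close together, between 19289.9 and 34065.

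On the smaller design the brightest genes were Nppa, with 26297 and 32818, and Rpl6, a large-subunit ribosomal protein gene, with 24405 and 32449.6. The other 13 of its first 15 were Atp5mc3, Ndufb8, Sparc, Tnnt2, Rpl10, Pebp1, Rpl23, Rps18, Bsg, Rps15, Rplp1, Rps27 and Ldhb. Bsg, the gene of basigin, a partner of lactate transporters, and Pebp1, which encodes a Raf kinase inhibitor, ranked 35 and 40 on the larger design. Of the 15, 10 were among the 30 brightest there as well. Acta1 gave 24833 and 24877 and ranked 16.

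The promoters of 4 of these bright genes are shown with the motifs that a search of both strands found in the window from 250 bases before to 50 bases after the start of transcription. Capitals mark the TATA motif TATAAA, the CArG box bound by serum response factor, the MEF2 site, CATTCC, bound by TEAD factors, and GATAA, bound by GATA factors. The windows are those of RefSeq on build GRCr8 and read 5′ to 3′ on the strand of the gene.
Acta1, chr19:68784145-68784444, minus strand: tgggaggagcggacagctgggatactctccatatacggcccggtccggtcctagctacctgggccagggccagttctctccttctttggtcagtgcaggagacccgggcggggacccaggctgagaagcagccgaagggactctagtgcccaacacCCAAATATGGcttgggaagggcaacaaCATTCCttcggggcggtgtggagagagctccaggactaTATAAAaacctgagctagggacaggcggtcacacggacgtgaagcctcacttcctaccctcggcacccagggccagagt
Mybpc3, chr3:97550811-97551110, plus strand: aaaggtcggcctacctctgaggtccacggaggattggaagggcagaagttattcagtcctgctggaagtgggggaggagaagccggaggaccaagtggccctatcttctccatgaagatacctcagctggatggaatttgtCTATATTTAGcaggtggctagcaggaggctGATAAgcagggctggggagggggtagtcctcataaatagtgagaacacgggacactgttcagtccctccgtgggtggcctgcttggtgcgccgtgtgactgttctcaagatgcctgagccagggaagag
Nppa, chr5:163711934-163712233, plus strand: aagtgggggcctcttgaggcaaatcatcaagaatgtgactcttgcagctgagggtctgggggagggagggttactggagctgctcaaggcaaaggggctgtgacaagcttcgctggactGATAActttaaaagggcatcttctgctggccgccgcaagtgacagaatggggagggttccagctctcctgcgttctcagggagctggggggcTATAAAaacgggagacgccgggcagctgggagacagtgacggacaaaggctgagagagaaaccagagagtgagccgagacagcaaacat
Cox6a2, chr1:192219667-192219966, minus strand: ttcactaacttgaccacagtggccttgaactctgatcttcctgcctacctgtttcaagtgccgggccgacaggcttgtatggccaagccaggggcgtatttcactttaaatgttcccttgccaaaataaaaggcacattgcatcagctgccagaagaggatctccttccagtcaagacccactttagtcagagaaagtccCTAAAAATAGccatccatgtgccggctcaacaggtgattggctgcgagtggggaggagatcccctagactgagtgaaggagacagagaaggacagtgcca

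Acta1 was shown as the brightest gene, and its window held a CArG box 94 bases before the start, a CATTCC 67 bases and a TATAAA 29 bases before it. Mybpc3, a gene of the thick filament, had a MEF2 site 109 bases and a GATAA 79 bases before the start. The window of Nppa held a GATAA at 131 bases and a TATAAA at 39 bases before the start. Cox6a2, the muscle isoform of a cytochrome oxidase subunit, held a MEF2 site 50 bases before the start. No other respiratory chain or ATP synthase gene of the 30 was found with such a site, so Cox6a2 is not typical of them. Of the 30 brightest genes 24 had a window in the table, and a CArG box was found in 4 of them (Acta1, Rplp1, Myl3 and Ldha), a MEF2 site in 3 (Cox6a2, Mybpc3 and Smpx), a TATAAA in 3, a CATTCC in 4 and a GATAA in 10. Over all 27457 windows of the table the shares were 1.64% for the CArG box, 1.91% for the MEF2 site, 14.3% for TATAAA, 13.9% for CATTCC and 26.1% for GATAA. Over the 10081 windows of genes measured on the larger design they were 1.37% for the CArG box, 1.18% for the MEF2 site, 8.63% for TATAAA, 11.8% for CATTCC and 17.3% for GATAA. Of the 29 measured sarcomere genes 21 had a window, and 5 of them held a MEF2 site (Mybpc3, Ttn, Myoz2, Xirp2 and Hspb7), 3 a CArG box, 5 a CATTCC, 4 a GATAA (19.0%) and 2 a TATAAA (9.52%). These matches describe letters in a window and were set against no binding data.

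The sarcomere list as a whole lay near the top of the range. Of its 37 genes 29 were measured on the larger design, and 26 of the 29 were in the top 10% of all probes, where 20.3% of all genes lie, with a median percentile of 99.5. None was in the lower 50% of all probes, which holds 33.3% of all genes. Without replicates 4 and 5 the count was also 26. On the smaller design 15 of 18 measured members were in the top 10%, where 12.6% of its genes lie. There 1, Cryab, was in the lower 50%, where 46.6% of its genes lie, at the floor on both arrays. The 3 members below the top 10% on the larger design were Ankrd1, a stress-induced titin-binding protein gene (mean 513 ± 177 (SD, n = 4)), Smyd1, a muscle histone methyltransferase gene (265 ± 27.7), and Nebl, the gene of nebulette (175 ± 76.3).

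Among the myosin heavy chains, the motor proteins of the thick filament, Myh7 was far above every other member. Myh7, the slow beta isoform that dominates fetal rodent ventricle, gave 29447, 15725, 15616 and 28637. Next came Myh9, a non-muscle myosin, with 2367, 1309, 1205 and 1847, so that Myh7 exceeded it by 3.72 ± 0.16 on the log2 scale (SD over 4 arrays) and on every array. The embryonic skeletal gene Myh3 gave 1065, 504, 908 and 1306 and the fast skeletal gene Myh2 562, 278, 408 and 812. Myh1 and Myh4, the other adult fast skeletal isoforms, were at the floor of 4.84 on all 4 arrays, and perinatal Myh8 was at it on 3. Myh6, the alpha isoform of adult rodent heart, was covered by a probe assigned to Myh6 and Myh7 together and is not analysed here. The coding sequences of both genes are nearly alike, and whether the Myh7 probe also bound Myh6 RNA was not tested.

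The ventricular light chains were the brightest of their family, and the atrial Myl7 was bright too, at percentile 99.4. Of 12 listed light chains 7 were measured, and Myl4, the atrial essential chain, was not among them. Myl2 and Myl3, the ventricular regulatory and essential chains, could not be ordered: Myl3 gave 35837, 19321, 18486 and 28179.5, and Myl2 exceeded it by 0.12 ± 0.12 on the log2 scale, higher on 3 of 4 arrays. Myl7, the atrial regulatory chain, was lower, with 13533, 8448, 8178 and 11717, and Myl2 exceeded it by 1.38 ± 0.19 on every array. On the smaller design Myl7 gave 9442 and 14026 and Myl3 11223 and 10127, with no value for Myl2. Myl9, the regulatory chain of smooth muscle and non-muscle myosin, lay close to Myl7 with 17564, 6944, 9556 and 15542. Myl1, the fast skeletal essential chain, gave 182, 69.0, 166 and 285 and lay below the median gene, at percentile 58.6. Both actins with a probe of their own were bright: Acta1 exceeded Acta2, the smooth muscle alpha-actin, by 1.14 ± 0.59, and Acta2 gave 11041, 13821, 8944 and 19764. Acta1 was higher on every array, with the gap widest on replicate 3.

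The troponin complex carries the calcium switch of the thin filament, and its cardiac isoforms were bright throughout. For troponin I, the adult cardiac gene Tnni3 gave 36794, 19919, 15486 and 24213 and the fetal, slow skeletal gene Tnni1 22402, 16421, 14353 and 25449. The difference of 0.26 ± 0.34 on the log2 scale was smaller than its SD, with Tnni3 higher on 3 of 4 arrays, so the isoforms could not be ordered. Fast skeletal Tnni2 was far lower, at 37.5, 143, 52.7 and 9.19. For troponin T, cardiac Tnnt2 gave 33099.5, 23583, 16294 and 26637 and slow skeletal Tnnt1 187, 139, 154 and 249, a difference of 7.09 ± 0.41 on the log2 scale. For troponin C, Tnnc1, shared by heart and slow muscle, gave 35995, 18733, 17251 and 26515. Fast skeletal Tnnc2 gave 329.7, 3260.1, 284 and 277, high on replicate 4 alone through a probe whose ID starts with 73, inside the band described above.

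**Figure D3:**
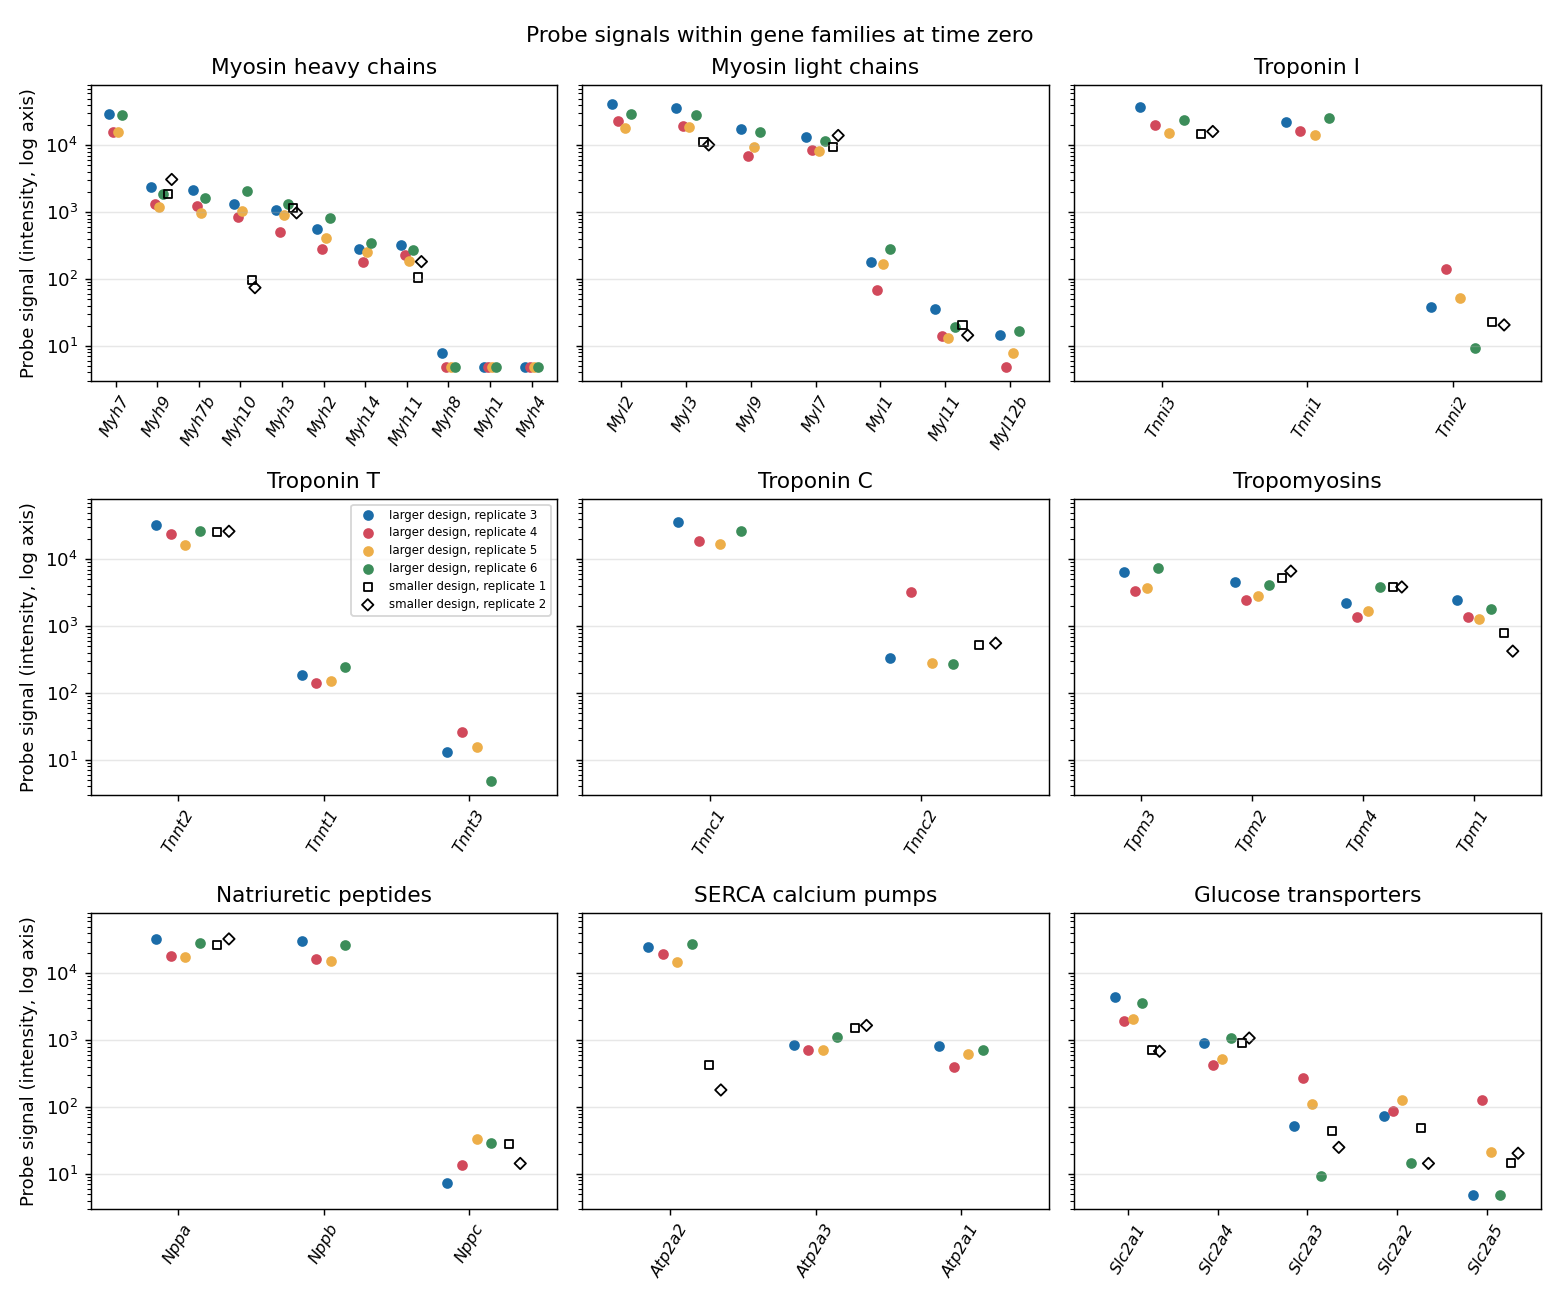
Signals (intensity, log axis) of the measured members of 9 families, ordered by mean log2 signal, on the 4 arrays of the larger design (filled circles) and the 2 arrays of the smaller design (open squares and diamonds). Cardiac isoforms separate from fast skeletal ones in the myosin heavy chain and troponin T panels, Tnni3 and Tnni1 overlap, and Atp2a2 differs between the designs.

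The tropomyosins, which lie along the actin filament, showed no such dominance. Tpm3 gave 6409.9, 3329.6, 3788 and 7551, Tpm2 4624, 2455, 2789.7 and 4066 and Tpm4 2188, 1394, 1689 and 3829.5. Tpm1, the main cardiac isoform, gave 2444, 1393, 1279.7 and 1784, the lowest of the 4 by mean. Tpm3 exceeded Tpm2 by 0.56 ± 0.22 on the log2 scale on all 4 arrays, but with all probes of a gene averaged the order turned (-0.31). Among the proteins that bind myosin, Mybpc3 exceeded the fast skeletal Mybpc2 (1975, 990.5, 1446 and 2616) by 3.81 ± 0.37. Sarcomeric alpha-actinin Actn2, the cross-linker of the Z-disc, gave 29506, 14206, 12902 and 18957 and exceeded non-muscle Actn1 by 1.27 ± 0.40, while Actn3 of fast muscle gave at most 57.3. Titin, Ttn, gave 22934, 15391, 12409 and 20695 by its brightest probe, while a second probe gave 2785, 1969, 1783 and 2953.

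Genes of the cardiac stress and fetal program, which rise in loaded or cultured myocytes, were bright as a group, with 8 of 13 measured members in the top 10% against 20.3% of all genes. Without the probes numbered 41 to 80, and so with fewer members measured, the count was 5. The counts on the smaller design were 3 of 7 in the top 10% and 2 in the lower 50%, where 12.6% and 46.6% of its genes lie. Nppb, the gene of brain natriuretic peptide, gave 30463, 16472, 15413 and 26496, close to Nppa, which exceeded it by 0.13 ± 0.05 on the log2 scale on all 4 arrays. Nppc, the third peptide of the family, was near the floor with 7.33, 13.7, 33.9 and 29.5. Rcan1, a calcineurin inhibitor, gave 16619.5, 8079, 8917 and 13241. The matrix-associated genes Ccn1 and Ccn2 gave means of 3226 ± 1382 and 2779.9 ± 531. Il6 and Tgfb1 were in the lower 50% of all probes, with means of 42.9 ± 50.4 and 28.9 ± 20.1.

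Calcium handling genes ranged from the very top to near the floor. Of 26 measured members of the list of calcium handling and excitation genes, 8 (30.8%) were in the top 10% and 7 (26.9%) in the lower 50%. The shares of all genes were 20.3% and 33.3%. The median percentile was 68.8 beside 68.4 for all genes. The smaller design had 4 of 19 (21.1%) in the top 10% and 11 (57.9%) in the lower 50%, beside 12.6% and 46.6% of its genes. Atp2a2, the calcium pump of cardiac sarcoplasmic reticulum, gave 25272, 19792, 14652 and 27219, and exceeded Atp2a3 (855, 704, 719.6 and 1101) by 4.67 ± 0.24 on the log2 scale. The smaller design had the opposite order: Atp2a2 gave 429.6 and 180.4 and Atp2a3 1513 and 1668. A second Atp2a2 probe of the larger design was also dim, at 357, 198, 321 and 378. Whether the probes bind different parts of the transcript is not known here.

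Slc8a1, the sodium-calcium exchanger, gave 17979.6, 12678, 12629 and 17081 on the larger design and 172 and 207 on the smaller. Casq2, the cardiac calcium store protein calsequestrin, gave 4927, 2337, 3985 and 7373, and its skeletal relative Casq1 3156, 2367, 2126 and 4370.4, lower on 3 of 4 arrays. Sarcolipin, Sln, the pump regulator of atrium and skeletal muscle, gave 2128, 1248, 1211 and 2169, and Pln exceeded it by 3.97 ± 0.20. Pln also exceeded Casq2 by 2.57 ± 0.50, an order that turned when all probes of a gene were averaged (-0.11), since 1 of the 3 Pln probes was dim. The release channel Ryr2 was far less bright by its best probe, with 949, 794, 743 and 604, and 2 further probes were near or under 50.4 on every array. It was at the floor on both arrays of the smaller design.

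Genes of excitation ranged from the top 10% of probes to the floor. Gja1, connexin 43, which joins ventricular myocytes, gave 13867, 6867, 9532 and 12176 and exceeded the next connexin, Gjb1, by 4.26 ± 0.77 on the log2 scale. Gja5, the connexin of atrium and conduction system, gave 273, 255, 203 and 322. Cacna1c, the pore of the cardiac L-type channel, gave 424, 344, 238 and 406, and Cacna1f, better known from retina, was the brightest member of its family with 1586, 1120.4, 1112 and 1418. Hcn4, the pacemaker channel gene, gave 123, 736, 118 and 79.3, high on replicate 4 alone through a probe whose ID starts with 74. Atp1b1, a subunit of the sodium pump, gave 26134, 14951, 15558 and 19427. Adrb1, the main cardiac beta-adrenergic receptor gene, was at the floor on all 4 arrays, and Adra1b and Adra1d could not be ordered, with a difference of 0.00 ± 0.45. Of the sodium channels measured, Scn4a was brightest with 1131, 675, 1292 and 752, but Scn10a was brighter on the smaller design (958 and 1302 against 99.9 and 93.4), and also on the larger with all probes of a gene averaged.

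Energy metabolism was the other group at the top. All 22 measured respiratory chain genes were in the upper 50% of probes and 20 in the top 10%, beside 20.3% of all genes. Their median percentile was 99.3, and without replicates 4 and 5 the count was also 20. The smaller design had 13 of 15 in the top 10% and none in the lower 50%, beside 12.6% and 46.6% of its genes. Cox6a2 and Cox6a1, the muscle and ubiquitous forms of one cytochrome oxidase subunit, could not be ordered: they gave 32008, 19352, 18377 and 25029.8 and 26023, 15539, 15326 and 26425, with Cox6a2 higher on 3 of 4 arrays. Cox8b, the heart form, and Cox8a were each higher on 2 of 4 arrays and gave 17175, 12282, 4502 and 8132 and 9548, 5764, 4608 and 9215. Slc25a5, an ADP/ATP carrier of proliferating and many other cells, gave 20149, 11576, 13746 and 16889.6, and exceeded Slc25a4, the heart and muscle carrier (4077, 2168, 2001 and 4783), by 2.33 ± 0.40 on the log2 scale. On the smaller design the carriers gave signals of similar size, 13263 and 8817 and 10989 and 10135.

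Glycolytic genes had 14 of 18 measured members (77.8%) in the top 10%, beside 20.3% of all genes, and a median percentile of 97.9. For the smaller design the counts were 6 of 15 (40%) in the top 10% and 3 (20%) in the lower 50%, beside 12.6% and 46.6% of its genes. Hk2 and Pfkm, a muscle phosphofructokinase, were at the floor there. With all probes of a gene averaged the count on the larger design was 9. Ldha, the lactate dehydrogenase of glycolytic tissue, and Ldhb, that of heart, gave 31630.4, 21487, 17057 and 26557 and 29874, 16458, 19786 and 27945, each higher on 2 of 4 arrays. Among hexokinases, Hk1 gave 18814, 11319, 9440.1 and 14340.1 and Hk2, the insulin-responsive form of adult muscle, 1066, 608, 772 and 1375, a difference of 3.84 ± 0.41 on the log2 scale. Slc2a1, the glucose transporter that predominates in fetal heart, gave 4388, 1961, 2108 and 3645, and Slc2a4, the insulin-responsive one, 898, 424, 517 and 1068, a difference of 2.07 ± 0.23. The smaller design turned this order, with 714 and 685 for Slc2a1 and 902 and 1079 for Slc2a4. Ckm, muscle creatine kinase, gave 3211, 1889, 1927 and 2096 and exceeded Ckb by 2.06 ± 0.42 on every array.

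Of 21 measured fatty acid oxidation genes 12 (57.1%) were in the top 10% of the larger design, beside 20.3% of all genes. None was in its lower 50%, where 33.3% of all genes lie. The smaller design had 4 of 15 (26.7%) in the top 10% and 5 (33.3%) in the lower 50%, beside 12.6% and 46.6% of its genes. Acadl and Acadvl, dehydrogenases for long and very long chains, gave 16416, 7388, 9110.0 and 13655 and 11657, 6422, 7060.1 and 13279.9. Cpt1b, the muscle form of the enzyme that admits fatty acids into mitochondria, gave 8197, 7083, 4746 and 6235, and the fetal and liver form Cpt1a 2429, 1368, 1969 and 2778. Cpt1b was higher on every array, by 1.64 ± 0.55 on the log2 scale, and Cpt1a was at the floor on the smaller design. Fabp3, the heart fatty acid-binding protein gene, is not analysed here. The nuclear receptors Esrra and Ppara gave 414, 259.6, 373 and 604 and 104, 42.5, 159 and 130.3.

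Ribosomal protein genes fell into bright and dim probes. Of 18 measured, 12 (66.7%) were in the top 10%, beside 20.3% of all genes. In the lower 50% were 4 (22.2%), beside 33.3% of all genes, although most of these proteins are made in equal amounts for each ribosome. Of 7 on the smaller design, 6 were in the top 10% and 1 in the lower 50%, beside 12.6% and 46.6% of its genes. Rps6 gave 19086, 9554, 9915 and 17088 on the larger design and was at the floor on both arrays of the smaller. The 3 probes of Rpl6 on the larger design had mean log2 signals from 4.28 to 14.40, from near the floor to the top.

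Of 10 measured cardiac transcription factors, 3 (30%) were in the top 10%, beside 20.3% of all genes, and 1 in the lower 50%. Mef2a, a MADS-box factor of muscle, gave 5486, 2636, 2591 and 6764, Gata4 3865, 2036, 1962 and 4446, and the ventricular factor Irx4 3219, 1421, 1689.7 and 3270.3, and these were the 3 in the top 10%. The 1 in the lower 50% was Nfatc4, a calcineurin-regulated factor, at percentile 16.2. Of 6 on the smaller design, 1 was in the top 10% and 1 in the lower 50%, beside 12.6% and 46.6% of its genes. With all probes of a gene averaged the count in the top 10% of the larger design was 1. Tbx5 gave 1904, 1093, 1065 and 1607 and Nkx2-5, the homeobox factor that defines cardiac lineage, 617, 627, 313 and 649. Gata4 exceeded Gata5 by 3.89 ± 1.46 on the log2 scale, with Gata5 high on replicate 4 (165, 616, 94.7 and 148). Mef2a exceeded Mef2b by 2.36 ± 0.46, an order that turned with all probes of a gene averaged (-0.92). Hopx, Hand1, Srf and Myocd had means of 1264 ± 425, 1083 ± 329, 458 ± 105 and 290.2 ± 85.9.

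The place of DNA replication and mitosis genes differed between the designs. On the larger design, of 28 measured, 5 were in the top 10%, 17.9% beside 20.3% of all genes, 1 was in the lower 50%, and the median percentile was 76.9, above the 68.4 of all genes. The smaller design ranked them the other way, with a median percentile of 45.3, below its 53.8 for all genes. There 1 of 14 was in the top 10% and 10 in the lower 50%, beside 12.6% and 46.6% of its genes. Without the probes numbered 41 to 80 the count in the top 10% was 3. Rrm1, a ribonucleotide reductase subunit, gave 2865, 1988, 2107 and 2914, Mcm7, part of the replicative helicase, 3056, 1832, 1292 and 2859.6, and Cdk1, the mitotic kinase, 2523, 1314, 1117 and 3231. Cdk1 was dim on the smaller design, with 351 and 76.0. Top2a, topoisomerase II alpha, gave 2394, 1013, 1516 and 2323, and the mitotic cyclin Ccnb1 719, 338, 621 and 745. The D-type cyclins, which start the G1 phase, gave 5324, 2860.1, 3421 and 5376 for Ccnd2, 4340.4, 2613, 2639 and 5492 for Ccnd3 and 2136, 1299, 1185 and 2607 for Ccnd1. Ccnd2 and Ccnd3 could not be ordered, with a difference of 0.19 ± 0.18 on the log2 scale.

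One inhibitor of the cycle was among the brightest genes. Cdkn1a, p21, gave 23255, 14176, 14515 and 23838, at percentile 99.8, and 20464 and 27620.2 on the smaller design. It was the only member of 10 measured cell cycle inhibitors (10%) in the top 10%, beside 20.3% of all genes. On the smaller design it was the only member of 8 (12.5%), beside 12.6% of its genes, so the list as a whole did not exceed these shares. Cdkn2c gave 1068, 577, 611 and 1149 and Cdkn1c 351, 259, 278 and 184, whereas Cdkn1b, Cdkn2a and Cdkn2b were near the floor, with means of 13.5 ± 10.9, 16.4 ± 8.95 and 18.4 ± 23.4. The value of Cdkn2b rests on replicate 5, which gave 53.3 against at most 10.1 on the other arrays. A second Cdkn1a probe was dimmer, at 941, 433, 707 and 1126. Of 15 immediate early genes, which respond within minutes to serum or handling, 2 (13.3%) were in the top 10%, beside 20.3% of all genes. Of these, Ier3 gave 5452, 2416, 3066 and 5817 and Egr1 2779, 1476, 1145 and 2524. None of 12 was in the top 10% of the smaller design and 8 were in the lower 50%, beside 12.6% and 46.6% of its genes. Egr1 there gave 17.4 and 18.1. On the larger one Fos and Jun gave 879, 499, 452 and 881 and 808, 514, 451 and 796.

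Markers of other cell types differed widely between types, and are given as probe signals, not as numbers of cells. Fibroblast and matrix markers had a median percentile of 74.9, with 8 of 26 measured members (30.8%) in the top 10%, beside 20.3% of all genes. In the lower 50% were 7 (26.9%), beside 33.3% of all genes. On the smaller design 4 of 17 (23.5%) were in the top 10% and 10 (58.8%) in the lower 50%, beside 12.6% and 46.6% of its genes. The median there, 45.3, lay below its 53.8 for all genes. Beside Sparc, the 8 were S100a4 (23626, 11468, 11919 and 20909), Mgp, a matrix inhibitor of calcification (12198, 6621, 4753 and 9660.3), the intermediate filament gene Vim (9371, 6383, 4462 and 6112), Fstl1, Timp1, Fn1 and Col1a1. Vim and Fn1 were dim on the smaller design, with 123 and 18.5 for Vim and 147 and 134 for Fn1. Col1a1, the main fibrillar collagen chain, gave 2141, 1366, 1874 and 2279, and Col1a2 1725, 809.8, 1205 and 1415. The defining fibroblast genes Pdgfra, Tcf21, Lum and Dcn were in the lower 50% of all probes, with means of 5.42 ± 1.16, 20.4 ± 13.6, 9.80 ± 5.99 and 27.9 ± 21.2, and Postn and Ddr2 gave 195 ± 68.7 and 162 ± 42.0. Sparc, S100a4, Mgp and Vim are also made by other cells, so that the part fibroblasts had in them was not tested. With all probes of a gene averaged the count in the top 10% was 5, and it was also 5 without the probes numbered 41 to 80.

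Smooth muscle and pericyte markers had 4 of 12 measured members (33.3%) in the top 10%, beside 20.3% of all genes, and 2 with all probes of a gene averaged. On the smaller design 1 of 9 (11.1%) was in the top 10% and 6 (66.7%) in the lower 50%, beside 12.6% and 46.6% of its genes. The median percentile there was 46.8 beside 53.8 for all genes. The 4 on the larger design were Acta2, Tagln, a calponin-like actin-binding protein gene (7049, 4664, 6621 and 8528), Notch3 (5869, 3304, 3573 and 5845) and Cnn1, calponin itself (1883, 1268, 1412 and 2123). Myh11, the smooth muscle myosin that marks mature smooth muscle, gave 319, 227, 183 and 269, and the pericyte gene Rgs5 was near the floor, at percentile 13.3. Acta2, Tagln and Cnn1 are also made by immature cardiomyocytes and myofibroblasts, and which cells gave their signal cannot be told apart here. Notch3 gave 14.4 and 30.8 on the smaller design.

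No endothelial and no leukocyte marker was in the top 10%, among 20 and 22 measured, beside 20.3% of all genes. Endothelial markers had a median percentile of 57.3, below the 68.4 of all genes. Their brightest member, Plvap, gave 655, 1368, 375 and 555, Kdr, a receptor of vascular endothelial growth factor, 538, 517, 255 and 458, and Pecam1 391, 160.2, 421 and 416. There was also none on the smaller design among 14 endothelial and 15 leukocyte markers, beside 12.6% of its genes. Leukocyte markers had a median percentile of 36.0, with 15 of 22 (68.2%) in the lower 50%, beside 33.3% of all genes. Tyrobp, a signalling adaptor of myeloid cells, was the brightest with 854, 476, 521 and 1024, and Csf1r and Cd68, markers of macrophages, gave 298, 516, 188 and 325 and 378, 204, 254 and 375. Cd163 was high on replicate 4 alone (105, 638, 153 and 57.3). Without replicates 4 and 5 both counts were also 0, with median percentiles of 57.9 and 34.9.

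Erythroid, epicardial and adipocyte lists also had no member in the top 10%, of 8, 9 and 7 measured, beside 20.3% of all genes. Lists this short say little by such a count. The epicardial gene Wt1 gave 267, 189.6, 122 and 176. In the neuronal list 1 of 12 (8.33%) was in the top 10%, below that share of all genes. This was Uchl1, a ubiquitin hydrolase (3347, 1486, 1751 and 3201), while Dbh, dopamine beta-hydroxylase, gave 968, 659.7, 704 and 1075. Of 24 skeletal muscle markers 3 (12.5%) were in the top 10% (Casq1, Ckm and Mybpc2), beside 20.3% of all genes. In the lower 50% were 14 (58.3%), beside 33.3% of all genes. None was in the top 10% with all probes of a gene averaged. Genes of liver, pancreas, brain, eye and testis were taken as a floor for genes that heart cells should not use. This list also holds a few genes of kidney, lung and gut. It had a median percentile of 24.8, and 22 of 26 (84.6%) were in the lower 50%, beside 33.3% of all genes. The highest was Ins2, the insulin gene, with 369.7, 217, 218 and 262. The endothelial median percentile was 57.3, and the leukocyte median was 36.0, against this 24.8.

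**Figure D4:**
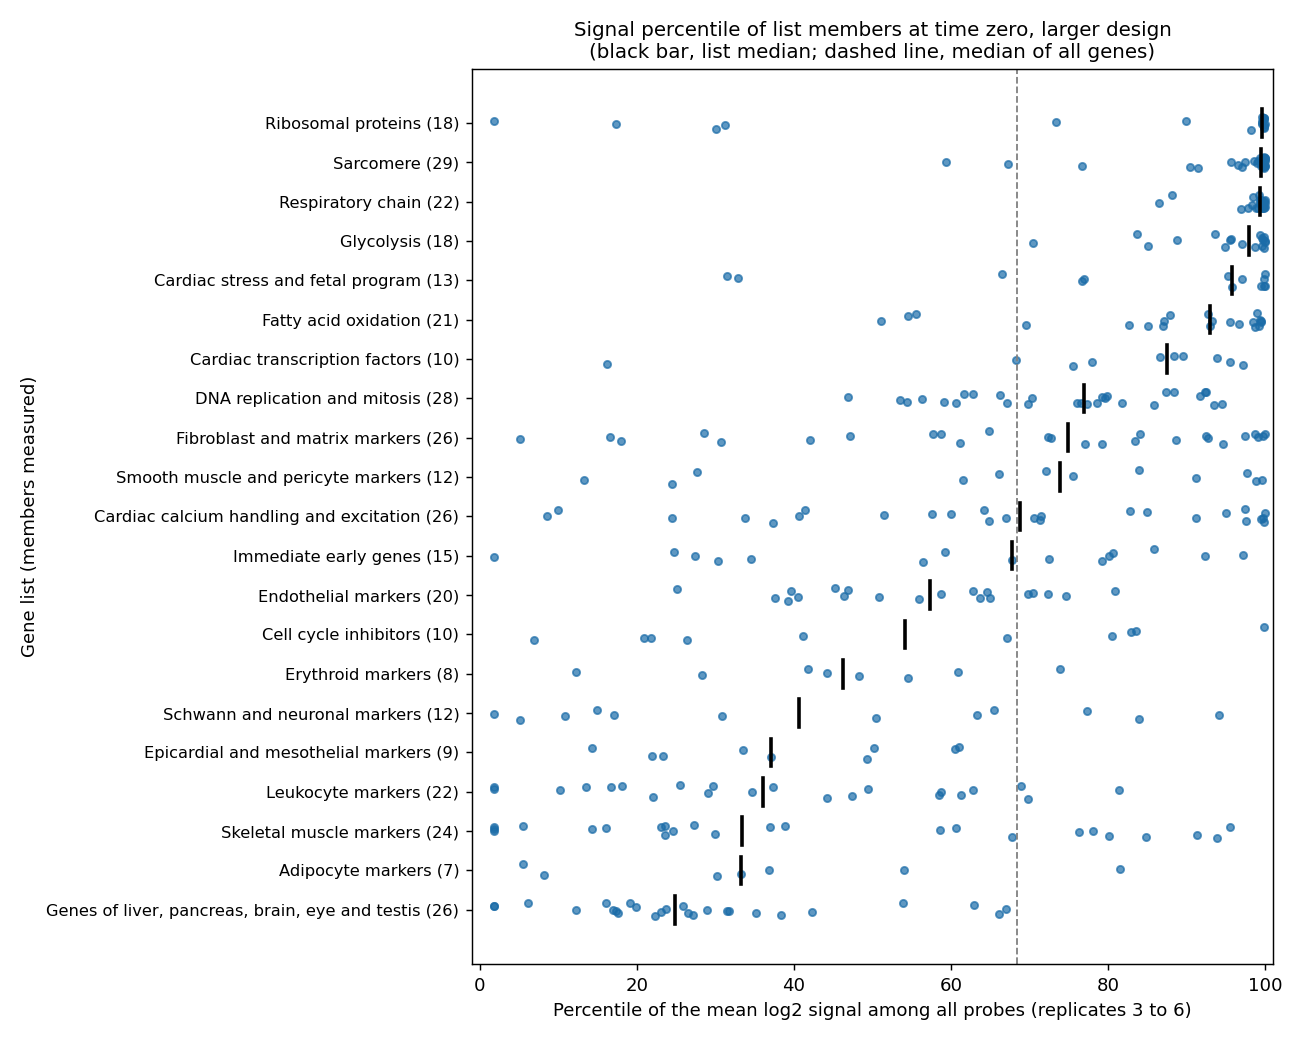
Percentile of each list member's mean log2 signal among all probes of the larger design (horizontal axis, replicates 3 to 6), 1 row per gene list with the number measured, points for genes, a black bar for the list median and a dashed line for the median of all genes, 68.4. Sarcomere and respiratory chain genes crowd at the right, and leukocyte markers and genes of other organs lie to the left of the dashed line by their medians.

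As a share of the summed signal of all 12197 named genes on an array, the 29 sarcomere genes took 2.48 to 2.99% over the 4 arrays, with every gene taken by its brightest probe. The 26 fibroblast and matrix markers took 0.490 to 0.563% and the 12 smooth muscle and pericyte markers 0.165 to 0.239%. The 20 endothelial markers took 0.0238 to 0.0408% and the 22 leukocyte markers 0.0146 to 0.0297%. The highest endothelial and leukocyte shares were both those of replicate 4. On the smaller design the shares were 1.98 and 2.04% for 18 sarcomere genes and 0.732 and 0.809% for 17 fibroblast and matrix markers, of the summed signal of its 6455 genes, and 0.0636 and 0.0972% for 9 smooth muscle and pericyte markers. Such shares depend on which genes have a probe and are not shares of cells.

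The spread between the 4 arrays depended on the level and on the scaling. The median SD of the log2 signal over all probes was 0.56, and it was widest, 1.28, between the 20th and 30th percentile of probes by level, close above the floor, and 0.50 in the top 10%. In that top class the median SD was 0.28 as deposited, without scaling, and 0.14 with the scaling but for replicates 3 and 6 alone. Of 14406 probes above the median on every array, 6850 stayed within a 2-fold range and 348 ranged over more than 4-fold, 238 of them with replicate 4 highest.

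The 10 genes with the largest SD among those above the median on every array were Nes, Plekha5, Tifab, Nudt8, Lhfpl4, Nlrx1, Tmem67, Tnnc2, Dnaaf4 and Adora1, and all 10 were highest on replicate 4. Nes, the intermediate filament gene nestin, gave 133, 2057, 172 and 110.1, and Plekha5 gave 191, 3183, 615 and 176. Adora1, the adenosine A1 receptor gene, gave 482, 3479, 344 and 350.2. Their probe IDs all start with numbers from 50 to 73, in the band where replicate 4 was high. The 5 steadiest genes were Abhd14b, Rrn3, Homer3, Gprc5c and Fnip1, all of middling signal. Abhd14b gave 375, 386, 383 and 359.6, and Rrn3, a factor of ribosomal RNA transcription, 194, 199, 181 and 187.

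The 2 designs gave like orders of genes with some sharp exceptions. Over the 6455 shared genes the mean log2 signals had a Pearson correlation of 0.86 and a Spearman correlation of 0.87, given across genes as a description. For the 5766 genes whose probes were annotated with the same accession Pearson's r was 0.90, and for the other 689 it was 0.63. Of the 646 genes in the top 10% of the shared genes on either design, 494 (76.5% of each list) were in both. The percentile differed between designs by a median of 6.24 points, and by more than 50 points for 111 genes (1.72%).

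Single genes differed by nearly the whole range. Gadd45a, a growth arrest and DNA damage gene, was at the floor on all 4 arrays of the larger design and gave 8568 and 12361 on the smaller. Manbal, Arf5, S100a16 and Get3 did likewise, with 6638 and 8728 for Manbal. In the other direction, Cryab, the small heat shock protein of muscle, gave 31972, 16925, 15582 and 21894 on the larger design and was at the floor on both arrays of the smaller. Rps6, Pkia, S1pr1 and Hmox1 also were at the floor there, although Hmox1, heme oxygenase 1, gave 3617, 1587, 2555 and 4682 on the larger design. For 8 of these 10 genes the annotation named the same accession on both designs.

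**Figure D5:**
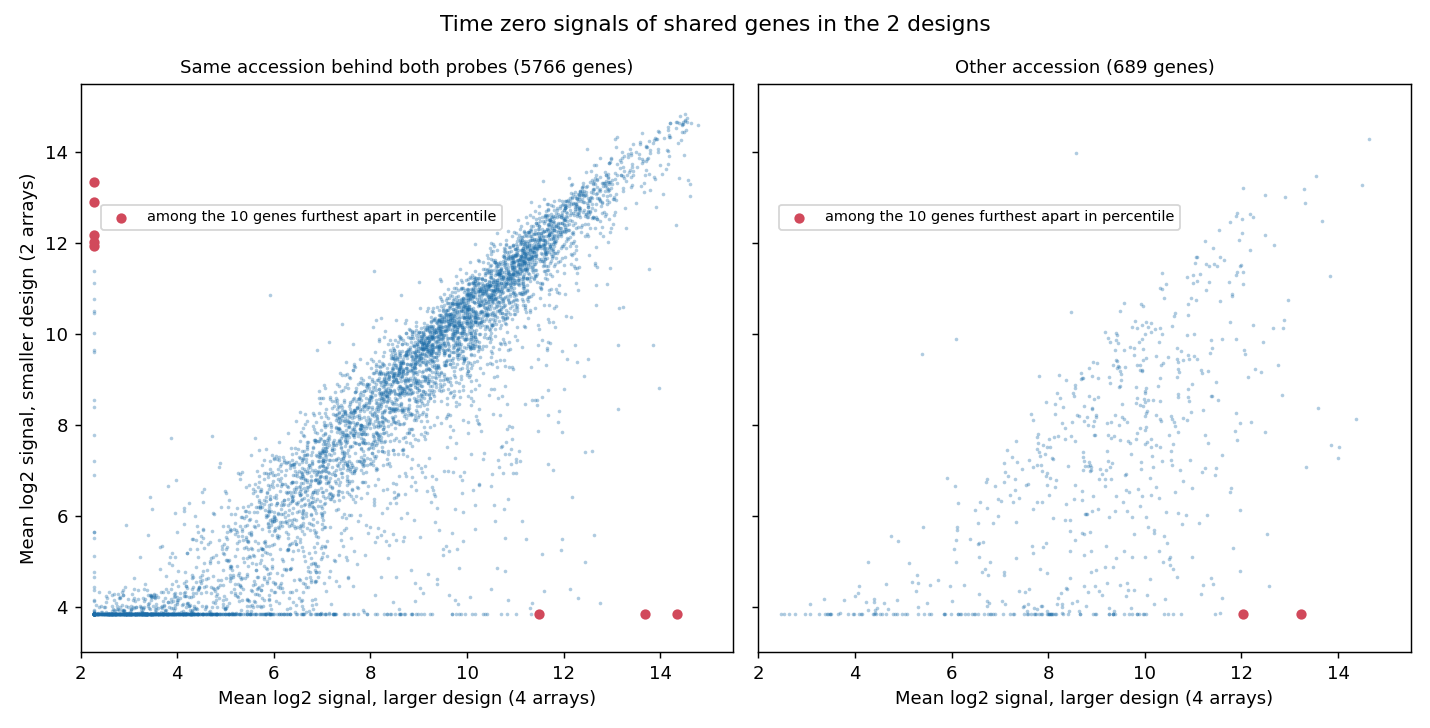
Mean log2 signal of the genes shared by both designs, larger design (4 arrays) on the horizontal and smaller design (2 arrays) on the vertical axis, 1 point per gene, for the 5766 genes with the same accession on the left and the other 689 on the right; red points are the 10 genes furthest apart in percentile. Points at the lowest values of either axis are at the floor.

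The order within a family was set by the means over the 4 arrays of the larger design. Counts of that order on the same 4 arrays are raised by this choice, in which the smaller design had no part. Of 39 families with at least 2 measured members, the brightest member was above the next on all 4 arrays in 30, by more than 4-fold on average in 17, and the gap was smaller than its SD in 6. For 18 of these pairs both genes were on the smaller design, where 12 kept the order on both arrays and 4 had the opposite order on both: Atp2a2 over Atp2a3, Slc2a1 over Slc2a4, Scn4a over Scn10a and Adra1b over Adra1d. Probes of 1 gene differed as much: of 3688 genes with several probes, 2105 had probes more than 2 apart on the log2 scale, with a median range of 2.43. Among the genes given with values on all 4 arrays, that was so for Atp2a2, Casq1, Ccnd2, Ccnd3, Cdkn1a, Cdkn2c, Col1a1, Cox8a, Csf1r, Egr1, Gja1, Hk2, Irx4, Kdr, Ldha, Ldhb, Mef2a, Mgp, Mybpc2, Myh11, Myh9, Notch3, Pecam1, Plekha5, Pln, Rrm1, Ryr2, Scn4a, Slc2a1, Slc8a1, Sparc, Tbx5, Tpm1, Ttn, Uchl1 and Wt1, and their levels hold for the brightest probe only.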

How the data were processed

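Time zero samples were taken by their source label, 4 arrays of the larger and 2 of the smaller CodeLink design. The deposited files hold 1 intensity per probe and array, on a linear scale. Biotin labelling and hybridisation are given per the labels' protocols; scanner, background correction and normalization are not given in the sources used here. All arrays of a table were brought to one median, that of the medians of all its arrays, values under 0.05 of that median were raised to it, and log2 was taken. Of 33849 probes with values on the larger design 16753 had 1 gene in the platform annotation, 165 several and 16931 none; on the smaller design 7290 of 9906 had 1. A gene takes its brightest probe by mean log2 signal. No test was made and no p-value computed. The genes named are the brightest 30 and 15, members of the families and lists, those with the largest and smallest SD, and those furthest apart between designs; other list members, mostly dim ones, were chosen after their values were seen. Members and lists were chosen with earlier results of these data known. Alternatives were quantile and 75th percentile scaling, another floor, a pseudocount, the mean of all probes, a filter on low genes and leaving out each array; values without scaling, replicates 4 and 5 left out together, and probes numbered 41 to 80 left out were chosen after seeing the data. The steps were tested on simulated data. Python 3.11.15, numpy 2.4.6, pandas 2.3.3 and matplotlib 3.10.9 were used.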

Additional observations from a re-analysis of the deposited data

Results flagged for a closer look

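Among the 115 genes of the larger design whose 4 values are printed, 5 had 1 array far from the other 3. The measure was the gap to the nearest array over the whole range, where chance flags about 1 in 20 genes. That rate does not hold for genes chosen by their SD over the same arrays. Tnnc2, Nes and Adora1 were among the 10 with the largest SD. Tnnc2 was high on replicate 4 with 3260.1, as were Nes with 2057 and Adora1 with 3479. Their probe IDs start with numbers in the band from 41 to 80, where replicate 4 was high on 27.3% of probes. Pecam1 was low on replicate 4 with 160.2, and Nkx2-5 was low on replicate 5 with 313.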

How the results depend on the processing

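Of 1109 alternative values for 86 results, 1036 stayed within the spread of the arrays or within 1.5 times the count, 66 moved and 7 reversed. All 7 reversals came from averaging all probes of a gene, on the log2 scale: Tpm3 over Tpm2 became -0.31, Ryr2 over Itpr1 -2.57, Pln over Casq2 -0.11, Eno1 over Eno2 -3.60, Cav1 over Cav3 -0.97, Scn4a over Scn10a -1.07 and Mef2a over Mef2b -0.92. The same averaging gave median percentiles of 98.9 for sarcomere genes, 66.1 for fibroblast and 47.0 for endothelial markers, and top 10% counts of 5 fibroblast and 2 smooth muscle markers. Keeping only genes above the 30th percentile gave medians of 81.3 for fibroblast and 58.6 for leukocyte markers, because low genes are dropped. Without the probes numbered 41 to 80, the medians were 99.4 for sarcomere genes, 72.7 for fibroblast, 51.1 for endothelial and 30.3 for leukocyte markers, with 5 fibroblast markers in the top 10%. The median SD in the top 10% of probes, 0.50, was 0.18 after quantile normalization, 0.27 with 75th percentile scaling, 0.28 without scaling and 0.14 without replicates 4 and 5. Over all probes, 0.56, it was 0.36 with a pseudocount and 0.23 without replicates 4 and 5. With each array left out in turn the sarcomere median stayed between 99.51 and 99.53. The cause of the other changes was not tested. No paired analysis was possible because replicate numbers only name the arrays and no test was made. The lack of spot flags and of background values limits what can be said of probes near the floor or the top.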

Other observations

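Of the 100 brightest probes of the larger design, 15 had no single gene name in the annotation and are not described.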
